A study of Rattus norvegicus with 6 samples.

Results

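The miRNAs described here come from the imprinted Dlk1-Dio3 locus, and 39 of their mature forms were taken by name from the 761 miRNA probes of a rat array (rno-miR-127-3p, rno-miR-134-5p and so on; the species prefix is left off below). They were measured in cultured rat oligodendrocyte precursors, glial cells that mature into the oligodendrocytes, which make myelin. The DIV3 group holds 3 samples that had been allowed to differentiate by a change of growth factors in Raff medium, and the DIV0 group holds 3 samples kept in the normal condition in the same medium. The titles were read as days 3 and 0 in culture, so time and growth condition cannot be told apart. Each sample was 1 single-colour Cy5 array, and all samples carry the label of oligodendrocyte precursor with no strain, age or genotype given. The labels do not state separate cultures for the 3 samples of a group, so p-values measure the spread between these arrays, which may be technical.

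The Dlk1-Dio3 locus of mammals is imprinted. The genes for the proteins Dlk1, Rtl1 and Dio3 are expressed from the paternal chromosome, and long non-coding RNAs such as Meg3, together with a very large group of miRNAs, from the maternal one. Many of these miRNAs are known from neurons, where those of the miR-379 to miR-410 group act on dendrites and synapses. A miRNA acts by pairing of its seed, bases 2 to 8 from its 5′ end, with target messenger RNAs. The miRNAs at the Rtl1 end, which include miR-127 and miR-136, are transcribed antisense to Rtl1 and cleave its messenger in mouse.

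In RefSeq's table of the rat genome (build GRCr8), 38 of the 39 members have a mature sequence. All 38 lie on the plus strand of chromosome 6, between 134298129 and 134579828, a stretch of 281.7 kb. Members were matched by name, as no source used here gives the build behind the array. Along this stretch 4 members come from the Meg3 end (miR-770, miR-493, miR-337 and miR-665), 6 from 5 hairpins antisense to Rtl1, 2 from the region of Meg8 (miR-341 and miR-370) and 27 from the miR-379 to miR-410 group. The mature forms are 17 to 25 bases long with 23.8% to 70.6% G and C. No 2 of the 38 share a seed, so each has a target-pairing sequence of its own within the set.

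The sequences of the miR-299 hairpin are shown first, since its 3′ arm was the only member past the threshold of the test below. That call depended on the processing. In the hairpin, at chr6:134545069-134545131 on the plus strand, capitals mark both mature arms. In the mature sequences capitals mark the seed.
Mir299 hairpin: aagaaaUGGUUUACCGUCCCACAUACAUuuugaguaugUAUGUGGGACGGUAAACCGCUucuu
rno-miR-299a-5p: uGGUUUACcgucccacauacau
rno-miR-299a-3p: uAUGUGGGacgguaaaccgcu
rno-miR-299b-5p: cGGUUUACcgucccacauac
rno-miR-299b-3p: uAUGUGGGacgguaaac
The miR-299b hairpin is read from the opposite strand of the same place, and its arms were measured by probes of their own. Its 3′ arm, all 17 bases of it, is identical to bases 1 to 17 of miR-299a-3p, and 19 bases run alike between the 5′ arms. The array's probe sequences are not given in the files, so signal shared between these probes was not tested.

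The members whose probes were bright on every array are shown next, with the seed in capitals. They lie at chr6:134354538-134354559 (miR-370-3p), chr6:134550163-134550185 (miR-494-3p), chr6:134555392-134555413 (miR-667-3p), chr6:134562939-134562960 (miR-487b-3p) and chr6:134570949-134570972 (miR-668).
rno-miR-370-3p: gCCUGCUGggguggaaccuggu
rno-miR-494-3p: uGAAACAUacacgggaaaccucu
rno-miR-667-3p: uGACACCUgccacccagcccaa
rno-miR-487b-3p: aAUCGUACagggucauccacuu
rno-miR-668: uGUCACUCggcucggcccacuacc
Members with nearly the same seed were found in 4 pairs, each with 1 base changed. They are shown because miRNAs of like sequence can share signal on an array, which was not tested. Counted from the 5′ end, the change is G2A between miR-379-5p and miR-411-5p, A2U between miR-376c-3p and miR-376b-3p, A4G between miR-376b-3p and miR-376a-3p, and G4A between miR-300-3p and miR-381-3p.
rno-miR-379-5p: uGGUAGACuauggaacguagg
rno-miR-411-5p: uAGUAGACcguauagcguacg
rno-miR-376c-3p: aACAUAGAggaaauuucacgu
rno-miR-376b-3p: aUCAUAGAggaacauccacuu
rno-miR-376a-3p: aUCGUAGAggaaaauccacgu
rno-miR-300-3p: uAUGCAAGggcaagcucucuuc
rno-miR-381-3p: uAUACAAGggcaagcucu
Of bases compared from the 5′ end, 18 of 21 are alike between miR-376a-3p and miR-376b-3p and 17 of 18 between miR-300-3p and miR-381-3p. Between miR-376b-3p and miR-376c-3p it was 16 of 21. Outside the seed miR-379-5p and miR-411-5p were not compared.

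The arrays themselves differed in brightness. The median miRNA probe exceeded the BLANK spots by 27.9, 44.7 and 33.1 units for DIV3 replicates 1, 2 and 3, and by 25.5, 37.7 and 5.87 for those of DIV0. Dimmest was replicate 3 of DIV0, with spike-in spots at 6832 units against 27861 to 36833 on the other 5. The median of the cluster members was 20.4 to 28.1 units over BLANK in DIV3, and 20.8, 28.5 and 5.16 units over it in DIV0. DIV3 and DIV0 arrays of replicates 1 and 2 shared a slide, always with DIV0 first and DIV3 second, so the position on the slide and the condition cannot be told apart. The 2 arrays of replicate 3 lay on different slides, and its DIV0 array was the dim one. In that pair slide, brightness and condition cannot be told apart. All 5 miRNAs listed as markers of oligodendrocyte differentiation (among them miR-219a-5p and miR-338-3p) rose in DIV3 by limma at an adjusted p under 0.05. Their summed deposited intensity was 2616 to 4020 in DIV3 and 189 to 746 in DIV0. The list was chosen with earlier results of these data known, so it is no independent check of the label. A further form, miR-219a-1-3p, was not listed. It was dim, with deposited intensities of 7 to 12, and its log2 fold change, DIV3 minus DIV0, was -0.13 (limma adjusted p = 0.41).

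Most cluster members gave a weak signal in both conditions. A miRNA counted as detected where its spot exceeded the mean of the BLANK spots by 2 SD. By this measure 38, 28 and 32 of the 39 members were detected on the DIV3 arrays of replicates 1, 2 and 3, and 39, 33 and 31 on the DIV0 arrays. The groups overlap, and the array of replicate 1 was the highest in each. On all 6 arrays 24 of the 39 were detected, or 61.5%, where the whole array gave 70.7%. The other 15 were detected on 2 to 5 arrays, and each of them on at least 1 array of either condition, so no member was detected in 1 condition alone. The threshold is permissive, since 32.6% to 45.4% of the No Probe spots also passed it. With the BLANK mean plus 5 SD as the threshold, 14 of the 39 passed on all arrays, or 35.9% against 48.1% of all miRNAs. Above the 95th percentile of the No Probe spots on all arrays were 5 members, or 12.8% against 28.8% of all miRNAs. These 5 were miR-487b-3p, miR-494-3p, miR-370-3p, miR-667-3p and miR-668, and 10 members passed this last threshold on no array.

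**Figure D1:**
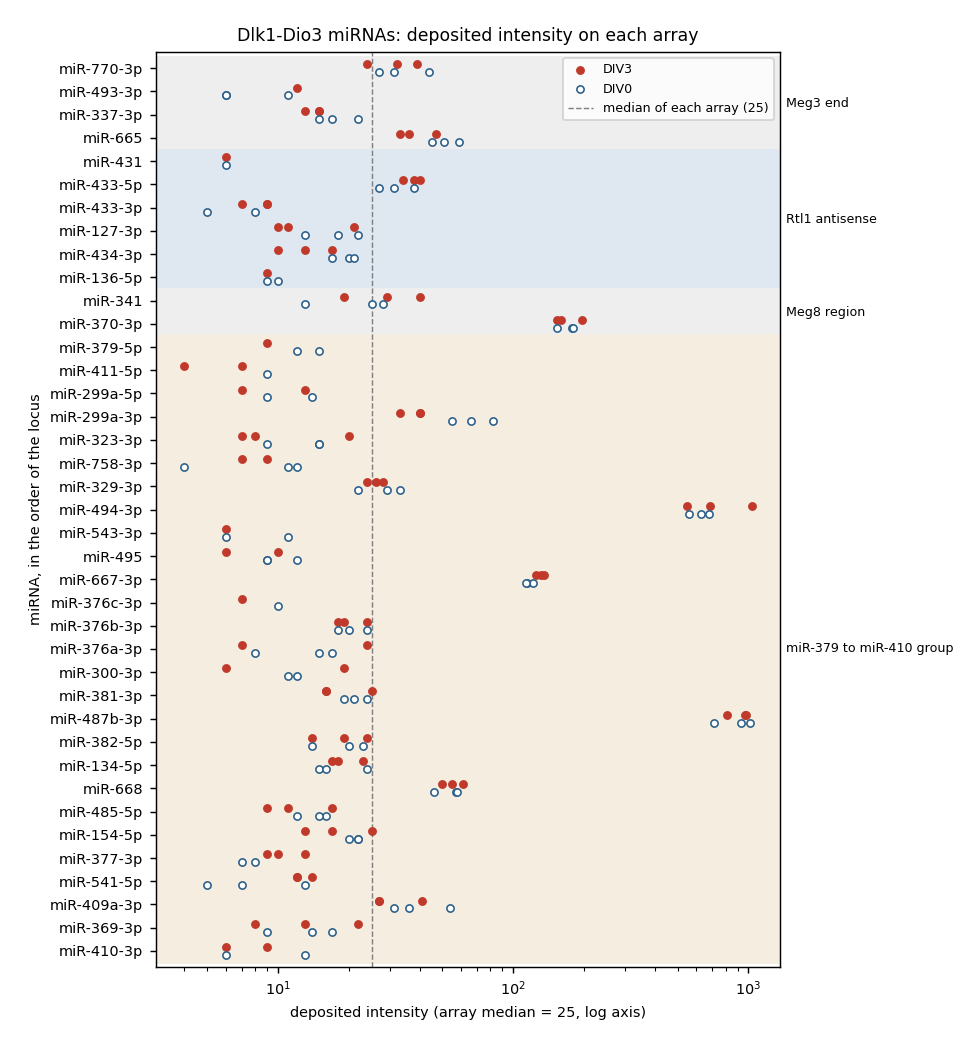
Deposited intensity (log axis, each array's median set to 25 by the authors) of the 39 members in the order of the locus, with filled points for the 3 DIV3 arrays and open points for the 3 DIV0 arrays. Missing values are not drawn. Most members lie left of the array median, 4 members lie above 100, and the DIV3 and DIV0 points of miR-299a-3p do not overlap.

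Levels are given below as the authors' deposited intensities, which set the median of each array to 25. They are brightnesses of different probes, and their order is not an order of amounts. The mean over the arrays was under 25 for 27 of the 39 members, or 69.2%, against 54.9% of all miRNAs, and above 100 for 4 members. The median member stood at 15.8, against 20.5 over all miRNAs. The probe of miR-487b-3p, from the miR-379 to miR-410 group, read 981, 812 and 971 in DIV3 and 1019, 712 and 935 in DIV0 for replicates 1, 2 and 3. The groups overlap, with replicate 2 the lowest in both. The probe of miR-494-3p, from the same group, read 1033, 549 and 684 in DIV3 against 558, 681 and 629 in DIV0. Here the DIV3 array of replicate 1 alone stood high. These 2 probes gave 64.5% to 68.1% of the summed member intensity on the DIV3 arrays and 60.3% to 65.2% on the DIV0 arrays, so a sum over the cluster mostly follows them.

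The next 3 in brightness lay well below these. For miR-370-3p, the only bright member outside the miR-379 to miR-410 group, the deposited intensities were 197, 154 and 160 in DIV3 and 178, 179 and 153 in DIV0. Those of miR-667-3p were 131, 125 and 135 in DIV3, against 114, 122 and 113 in DIV0. For miR-668 they were 61, 55 and 50 in DIV3 and 57, 58 and 46 in DIV0. The groups overlap for miR-370-3p and miR-668, while the 3 DIV3 values of miR-667-3p lie above the 3 DIV0 values on this scale. After the quantile normalization used for the test the values of miR-667-3p overlapped as well.

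The comparison of DIV3 with DIV0 asks which members change when the precursors are allowed to differentiate. It was made on log2 intensities after background correction against the BLANK spots, with 50 units added, and quantile normalization, by limma over 695 miRNAs, those with a detected spot on 3 or more of the 6 arrays. Of the 39 members 37 were tested, and miR-376c-3p and miR-431, detected on 2 arrays each, were not. Of the 37, 1 fell and 0 rose in DIV3 at an adjusted p under 0.05, where 14 of all 695 tested miRNAs passed, or 2.01% (0.863% as lower and 1.15% as higher). The share among the members is near that background. At an unadjusted p under 0.05 there were 3 of 37, all lower, against 14.7% of all tested miRNAs (7.19% as lower). With the replicate number as a block 1 member again passed, against 3.74% of all. The member that fell was miR-299a-3p. In these bulk samples fewer cells of a type and less miRNA per cell cannot be told apart.

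**Figure D2:**
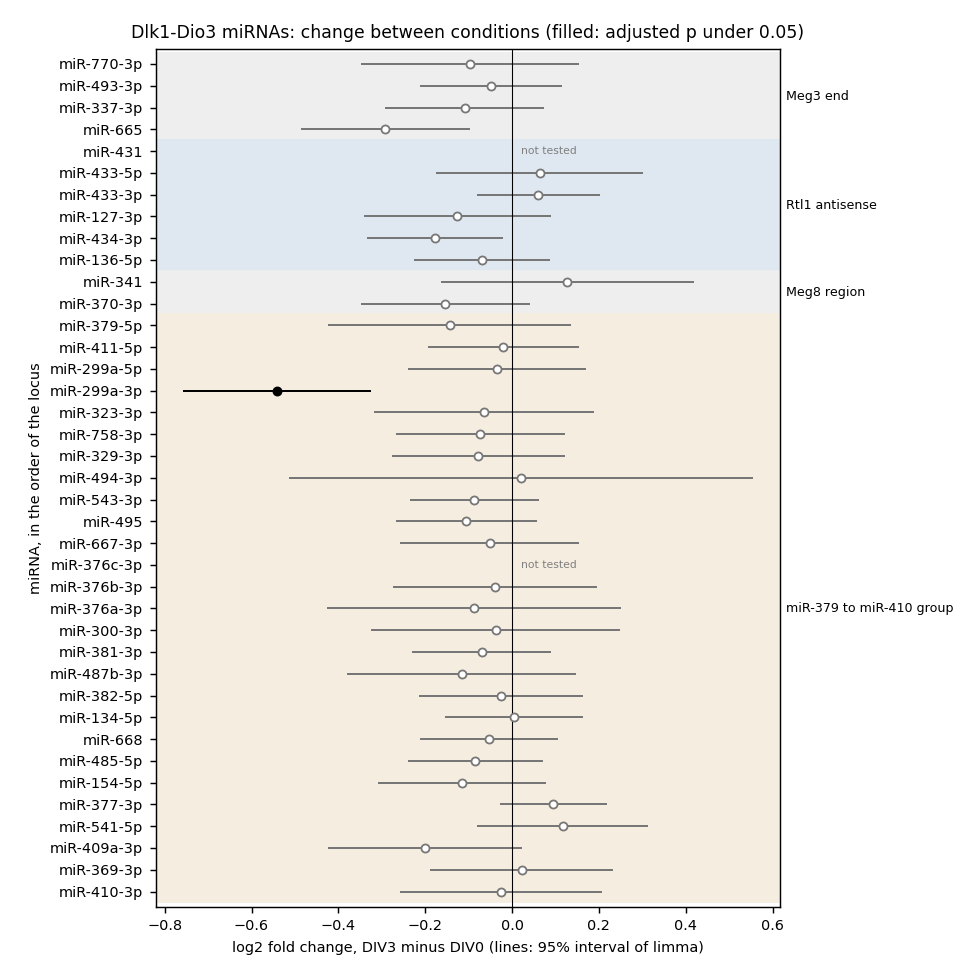
Log2 fold change, DIV3 minus DIV0, of the 37 tested members in the order of the locus, with the 95% interval of limma as a line. The interval of miR-299a-3p runs from -0.75 to -0.33, and no other member passed an adjusted p of 0.05.

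The deposited intensity of miR-299a-3p was 40, 33 and 40 on the DIV3 arrays of replicates 1, 2 and 3 and 82, 55 and 66 on the DIV0 arrays. All 3 DIV3 values are below all 3 DIV0 values, and the means were 37.7 ± 4.04 in DIV3 and 67.7 ± 13.6 in DIV0 (SD, n = 3 each). On the normalized log2 scale its level was 6.60, 6.57 and 6.76 in DIV3 and 7.22, 7.04 and 7.29 in DIV0. The log2 fold change was -0.54 ± 0.09 (SE; limma on 3 arrays per group, adjusted p = 0.037, and 0.014 with the replicate number as a block). In the pairs of equal number it was -0.62, -0.47 and -0.53, so the fall was of like size in each. Its size and call depended on the processing. The log2 fold change was -0.053 (adjusted p = 0.77) with the local background around each spot, -0.31 (adjusted p = 0.59) with median scaling, -0.50 (adjusted p = 0.082) with cyclic loess, -0.75 (adjusted p = 0.051) with an offset of 16, and -0.82 (adjusted p = 0.25) from the deposited values. With limma on 5 arrays the call was lost without any of the DIV3 arrays and without the DIV0 arrays of replicates 1 or 3, with adjusted p-values of 0.099 to 0.19 and log2 fold changes of -0.60 to -0.49. It was kept without the DIV0 array of replicate 2 (adjusted p = 0.046). With both arrays of a replicate left out it was lost too, at adjusted p-values of 0.15 to 0.42 and log2 fold changes of -0.57 to -0.50, and with the block it was kept only without replicate 2 (0.00060).

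**Figure D3:**
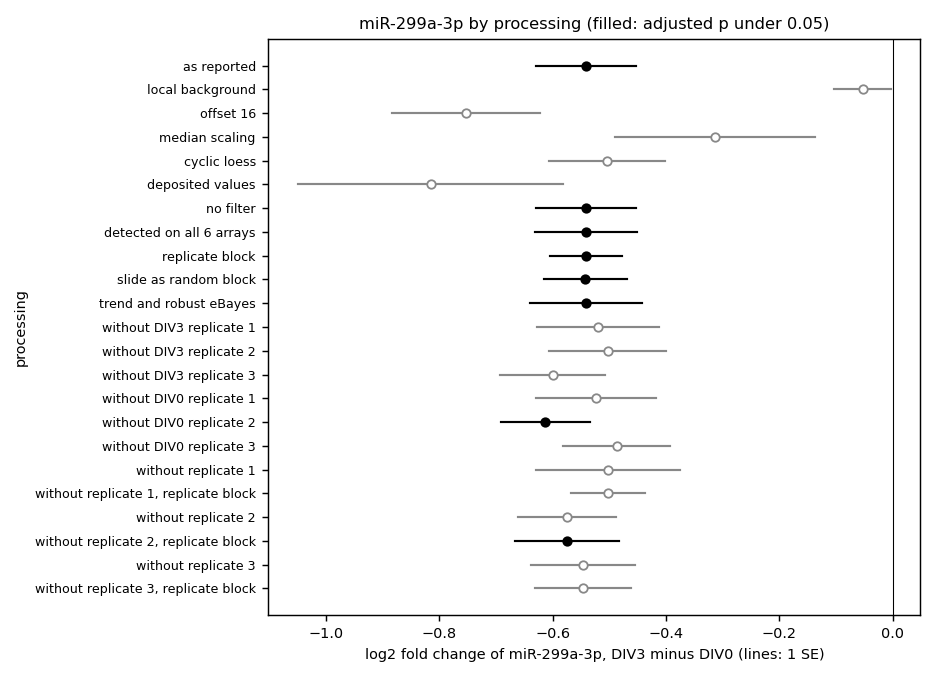
Log2 fold change of miR-299a-3p, DIV3 minus DIV0, under each processing, with 1 SE as a line and filled points where the adjusted p was under 0.05. All 23 values are below 0, from -0.82 with the deposited values to -0.053 with the local background, and 8 are filled.

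The opposite arm and the hairpin on the other strand stayed dim. The probe of miR-299a-5p had deposited intensities of 13 and 7 on the DIV3 arrays of replicates 1 and 3 and 14 and 9 in replicates 1 and 2 of DIV0, and was below detection on the other 2. Its log2 fold change was -0.03 ± 0.08 (SE; limma on 3 arrays per group, adjusted p = 0.91). The probe of miR-299b-3p, whose whole sequence is contained in miR-299a-3p, read 11, 8 and 9 in DIV3 and 8, 12 and 12 in DIV0. Its log2 fold change was -0.06 ± 0.07 (adjusted p = 0.75). For miR-299b-5p the values were 11, 12 and 8 in DIV3 and 9, 7 and 12 in DIV0 (log2 fold change 0.02 ± 0.06, adjusted p = 0.92). Of the 4 probes for this hairpin and its opposite strand, miR-299a-3p was therefore the only one past the threshold, and whether its change differed from those of the other 3 was not tested. The spots next to that of miR-299a-3p on the array were read as well: let-7g-5p stood at 0.02 (adjusted p = 0.97) and miR-298-3p at -0.01 (adjusted p = 0.99), and the third, miR-1b, was not tested.

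**Figure D4:**
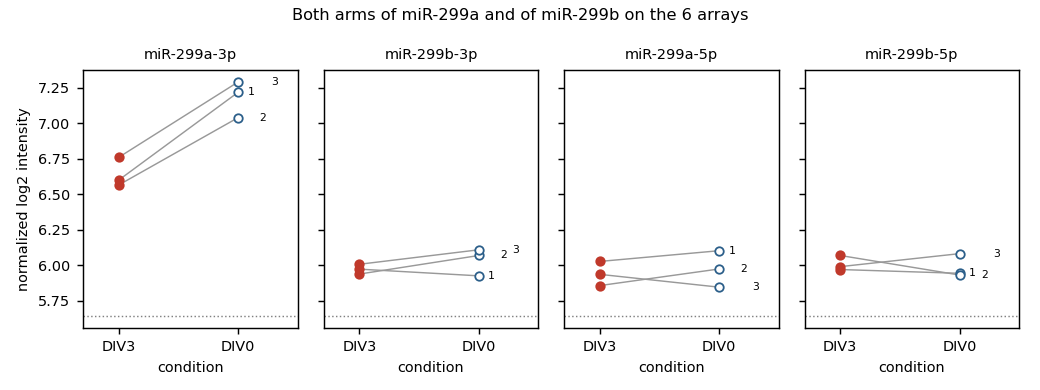
Normalized log2 intensity of both arms of miR-299a and of miR-299b, with DIV3 left and DIV0 right in each panel, lines joining arrays of equal replicate number and the dotted line at the added 50 units. Each DIV3 point of miR-299a-3p is below its DIV0 partner, while the other 3 probes lie between 5.85 and 6.11 in both conditions.

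Next in size, without passing the threshold, came 3 more members with lower values in DIV3. They are miR-665 from the Meg3 end, at chr6:134321733-134321754, miR-434-3p from the strand opposite Rtl1, at chr6:134330451-134330472, and miR-409a-3p from near the end of the miR-379 to miR-410 group, at chr6:134579231-134579250.
rno-miR-665: aCCAGGAGgcugaggucccuua
rno-miR-434-3p: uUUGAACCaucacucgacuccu
rno-miR-409a-3p: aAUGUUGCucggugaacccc
The deposited intensities of miR-665 were 47, 33 and 36 in DIV3 and 59, 45 and 51 in DIV0, and the groups overlap on this scale. After quantile normalization its 3 DIV3 values lay below the 3 DIV0 values, with a log2 fold change of -0.29 ± 0.08 (SE; limma on 3 arrays per group, adjusted p = 0.16, and 0.082 with the block). The values of miR-434-3p were 17, 13 and 10 in DIV3 and 20, 17 and 21 in DIV0, touching at 17 but apart after normalization (log2 fold change -0.18 ± 0.06, adjusted p = 0.27). Those of miR-409a-3p were 41, 27 and 27 in DIV3 against 54, 31 and 36 in DIV0, overlapping, with -0.20 ± 0.09 (adjusted p = 0.41). In each of the 3 pairs of equal number these 3 miRNAs were lower in the DIV3 array.

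Values above those of DIV0 were smaller, and none passed. The members with the highest log2 fold changes were miR-341 from the region of Meg8, at chr6:134347871-134347891, miR-541-5p at chr6:134578434-134578458, miR-377-3p at chr6:134576498-134576520 and miR-433-5p at chr6:134327369-134327390.
rno-miR-341: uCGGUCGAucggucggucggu
rno-miR-541-5p: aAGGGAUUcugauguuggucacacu
rno-miR-377-3p: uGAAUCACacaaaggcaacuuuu
rno-miR-433-5p: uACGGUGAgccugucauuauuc
The probe of miR-341 read 40, 29 and 19 in DIV3 and 25, 28 and 13 in DIV0, with a log2 fold change of 0.13 ± 0.12 (SE; limma on 3 arrays per group, adjusted p = 0.73). For miR-541-5p the values were 12, 12 and 14 in DIV3 against 5, 13 and 7 in DIV0 (0.12 ± 0.08, adjusted p = 0.63). Both overlap between the groups. The probe of miR-377-3p read 13, 9 and 10 in DIV3 and 7 and 8 in DIV0, where replicate 3 was below detection, and its normalized groups did not overlap (0.10 ± 0.05, adjusted p = 0.48). That of miR-433-5p read 34, 38 and 40 in DIV3 and 31, 38 and 27 in DIV0 (0.06 ± 0.10, adjusted p = 0.83).

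The brightest members did not pass either. The log2 fold change was -0.12 for miR-487b-3p, with a 95% interval of -0.38 to 0.15, and 0.02 for miR-494-3p, with -0.51 to 0.55, the widest interval of the 37. It was -0.15 for miR-370-3p, -0.05 for miR-667-3p and -0.05 for miR-668, and the limma adjusted p-values of these 5 were 0.48 to 0.99. The direction of the bright members other than miR-494-3p turned with the scaling. Under median scaling miR-487b-3p stood at 0.62, miR-667-3p at 0.45, miR-370-3p at 0.36 and miR-668 at 0.17. In the deposited values miR-667-3p stood at 0.16 and miR-487b-3p at 0.06. The value of miR-494-3p rested on the pair of replicate 1, at 0.77, where pairs 2 and 3 gave -0.49 and -0.22. Without both arrays of replicate 1 it was -0.35. Under median scaling of all arrays miR-494-3p kept its direction but stood at 0.76 (limma adjusted p = 0.59).

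By region, all 4 tested members of the Meg3 end had log2 fold changes below 0 (-0.29 to -0.05), as had 3 of the 5 tested members antisense to Rtl1 (-0.18 to 0.06), 1 of the 2 from the region of Meg8 and 21 of the 26 from the miR-379 to miR-410 group (median -0.06). Among those antisense to Rtl1, miR-127-3p had 21, 10 and 11 deposited units in DIV3 and 22, 13 and 18 in DIV0, overlapping, with a log2 fold change of -0.13 ± 0.09 (SE; limma on 3 arrays per group, adjusted p = 0.63). In the miR-379 to miR-410 group, miR-134-5p, which limits the size of dendritic spines in rat neurons, read 23, 17 and 18 in DIV3 and 24, 15 and 16 in DIV0 (0.01 ± 0.07, adjusted p = 0.99). Over all members 29 of 37 were below 0, or 78.4%, and the median was -0.07, with quartiles of -0.11 and -0.03. Over all 695 tested miRNAs 53.2% were below 0 and the median was -0.01. With the local background 15 of the 37 members were below 0, and from 25 to 30 under the other alternatives with the same 37 members. All but 3 members (miR-299a-3p, miR-665 and miR-409a-3p) lay within 0.2 of 0. In 5 members the groups did not overlap after normalization (4 lower, namely miR-299a-3p, miR-665, miR-434-3p and miR-543-3p, and 1 higher, miR-377-3p), against 18.8% of all tested miRNAs (8.78% lower and 10.1% higher).

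These small values have to be read with the added 50 units. Over the 37 tested members a doubling of the background-corrected DIV0 intensity would shift the log2 value by a median of 0.42, with a range of 0.19 to 0.97 that ends with the brightest, miR-487b-3p, and a halving by a median of -0.27. Of the 37 members, 36 had a 95% interval of limma that left out a doubling, all but miR-541-5p, and 19 had an interval that left out a halving. In the other 18, miR-299a-3p among them, the interval held a halving. For members near the BLANK spots an interval that leaves out a doubling cannot decide whether the miRNA changed. For miR-411-5p the corrected DIV0 intensity was 8.2 units, a doubling would be 0.19, and the interval ended at 0.15. Its spot was detected on 3 arrays, and at 5 SD on none.

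The difference between DIV3 and DIV0 varied between the pairs. In the pairs numbered 1, 2 and 3 the median log2 difference of the members, DIV3 minus DIV0, was 0.0014, -0.10 and -0.06, and 17, 31 and 28 of the 37 were lower in DIV3. Over all tested miRNAs these medians were 0.00021, -0.01 and -0.0085. The members were mainly lower in pairs 2 and 3. In all, 12 members were lower in all 3 pairs, against 20.6% of all tested miRNAs. Arrays of equal number shared part of their deviations from the group means across all miRNAs, with correlations of 0.37, 0.54 and 0.47 over 694 miRNAs, and across the 37 members these were 0.04, 0.10 and 0.32. These are correlations across miRNAs of 2 arrays that share a number, and 4 of the 6 arrays share a slide within it. The miRNAs are not independent replicates. Between arrays of unlike number the correlations were -0.40 to -0.02 over all miRNAs and -0.20 to 0.07 across the members. Deviations from a group mean cancel out within the group, so the values for equal and unlike numbers are not independent.

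**Figure D5:**
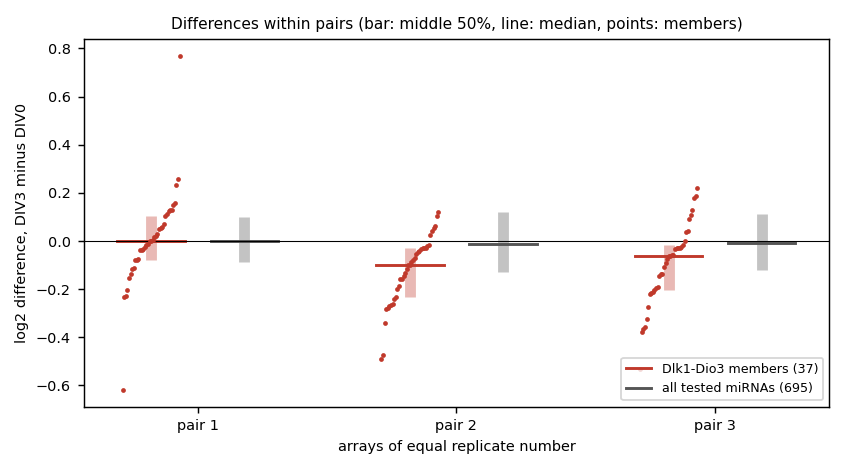
Log2 difference, DIV3 minus DIV0, within each pair of equal replicate number, with points for the 37 tested members, lines for medians and bars for the middle 50% of the members and of all 695 tested miRNAs. The member median is 0.0014 in pair 1, -0.10 in pair 2 and -0.06 in pair 3.

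Further probes of the locus were read from a list of its hairpins. The list held 53 mature forms beside the members, of which 47 were tested. It was not complete, since RefSeq places 98 mature forms of the array on this stretch, and the rest were not read here. Of the 47, none passed by limma in either direction, with 0 at an unadjusted p below 0.05, and the block likewise gave 0. Their median log2 fold change was -0.02, and 29 of 47 were below 0. Among them the probes of miR-3072 and miR-1188-3p were bright. That of miR-3072 read 932, 882 and 930 in DIV3 and 953, 849 and 937 in DIV0, and that of miR-1188-3p 428, 434 and 568 in DIV3 and 502, 399 and 509 in DIV0. The groups overlap for both, and these 2 were named after their values were seen.

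Markers of other cells were read beside the members, since the cluster is known from neurons. Of 9 neuron-enriched miRNAs, among them miR-124-3p, 0 passed in the limma fit (2 had an unadjusted p under 0.05), and their summed deposited intensity was 922 to 1251 in DIV3 and 974 to 1279 in DIV0. On the normalized scale 8 of the 9 were below 0, with a median log2 fold change of -0.10, the same side as the members. All 9 were detected on all arrays. The 6 miRNAs of microglia and blood summed to 197 to 399 in DIV3 and 186 to 560 in DIV0, with 0 passing, and miR-223-3p passing as lower with the replicate block. Of these 6, 5 were below 0, with a median of -0.17. The 8 of endothelial, mural and fibroblast cells summed to 202 to 422 in DIV3 and 202 to 389 in DIV0, with 0 passing, 5 below 0 and a median of -0.06. No list was at 0 in either condition, but this does not show that such cells were present. The sums add only spots past the BLANK threshold, which many No Probe spots also passed. The part of such cells in the levels of the members was not tested.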

How the data were processed

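Per the labels' protocols, RNA was extracted with ISOGEN and RNeasy, labelled with Cy5 and hybridised to 1 array per sample. The authors deposited scanner files with uncorrected median intensities of each of 3200 spots and its surroundings. Readings at 3 gains were put on 1 scale by least-squares lines, per the file headers. The authors' deposited value table holds other intensities, whose making is not stated. Each of its columns was a linear function of spot intensity over BLANK to within 0.522 units, with a median of 25. Its empty cells were spots within 2 SD of the BLANK mean, and 1 spot that the scanner had marked.

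Background was removed with normexp, using 1664 BLANK spots as negative controls and an offset of 50 (R 4.3.3, limma 3.58.1). Log2 values of 761 miRNA probes were then quantile-normalized. The local background followed the spot (correlation of log values 0.939 to 0.982) and served as an alternative. For detection the highest and lowest 5% of BLANK spots were left out. DIV3 and DIV0 were compared by lmFit and eBayes, two-sided, with Benjamini-Hochberg adjustment over 695 miRNAs. The number of arrays limits the precision. Both groups carry replicate numbers 1 to 3 in their titles. Deviations from the group means correlated within each number (0.37, 0.54 and 0.47 over all miRNAs), so these were taken as pairs. The pairing was thus chosen from these same data, and so was the use of the block. Of these steps, only the quantile normalization and the fit without the block were run on simulated data, with noise independent between arrays. Background correction, detection and the block were not simulated.

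The members, marker lists and tests were chosen with earlier results of these data known. Values in every array were given for members past the threshold, the 6 with the highest mean level, and the 4 with the largest log2 fold change in each direction. Other members named beside them serve as examples. Sequences are RefSeq's (GRCr8).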

Additional observations from a re-analysis of the deposited data

How the results depend on the processing

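Of all tested miRNAs 14 passed, 8 higher and 6 lower in DIV3. The count was 1 with the local background, 6 with an offset of 16 and 6 with the deposited values, 4 (4 higher and 0 lower) with median scaling, 26 with the replicate block and 29 with the slide as a random block. With 1 array left out limma gave 0 (without any DIV3 array or DIV0 replicate 3) to 13 (without DIV0 replicate 1), with 72 to 115 at an unadjusted p under 0.05. It was 7 without DIV0 replicate 2, and 0 to 41 with a pair left out. Of the members 1 passed, and 0 with the local background, an offset of 16, median scaling, cyclic loess or the deposited values (0 to 3 at an unadjusted p under 0.05), while 0 to 1 passed with an array or pair left out. On all 6 arrays the replicate block changed no call of a member. The median of the members relative to all tested miRNAs, -0.063, was -0.0019 with the local background, -0.11 with an offset of 16, -0.12 with median scaling and -0.23 with the deposited values. On all arrays 24 members were detected, 14 at 5 SD, 11 with the No Probe mean plus 2 SD and 5 at the 95th percentile of No Probe spots. Some members that did not pass turned direction. With the local background miR-487b-3p stood at 0.39, miR-370-3p at 0.25, miR-667-3p at 0.18, miR-668 at 0.013 and miR-409a-3p at 0.0020. With median scaling they were 0.62 for miR-487b-3p, 0.36 for miR-370-3p, 0.45 for miR-667-3p, 0.17 for miR-668, -0.0048 for miR-541-5p and -0.037 for miR-377-3p. In the deposited values miR-487b-3p was at 0.063, miR-667-3p at 0.16 and miR-668 at 0.046, and with cyclic loess miR-667-3p was at 0.012. With arrays or pairs left out miR-494-3p ranged from -0.35 to 0.28, miR-667-3p from -0.13 to 0.0061 (0.0014 without replicate 2) and miR-668 from -0.092 to 0.0031. The cause of these turns was not tested. Dim probes limit what the array can show, as most members lie close to the BLANK spots.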
